A study of Arabidopsis thaliana with 6 samples.

Results

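A set of 66 probe sets stood lower on the replicate 2 array than on the replicate 1 array of every genotype by at least 1.5 log2 units, a 2.83-fold difference. They were chosen from 22746 probe sets of a microarray study of Arabidopsis thaliana by that difference in each of the 3 genotypes, which were the mutants nar1-4/- and nbp35-3/- and wild type. Of 78 probe sets past the cut in all 3 genotypes, 3 for COR27, AT4G33980 and AT1G07050 and 9 from a run of neighbouring probe set numbers were set aside. COR15A, COR15B, PDF1.2, PDF1.2b, THI2.1 and STZ were also to be set aside, and no probe set naming them passed the cut. The choice therefore fixes the direction and the minimum size of the difference between replicates, and these are given as a description without a test.

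The samples were whole seedlings of the Col-0 background, 2 weeks after imbibition, grown on MS plates at 22 °C with 16 h of light. There were 2 arrays for each genotype, which the design text counts as biological replicates. The mark "/-" after an allele is not explained in the labels, and the source name of the nbp35-3/- samples reads nbp35-4/-. Beyond the alleles themselves the groups carried no stated transgene or treatment. NAR1 and NBP35 act in the cytosolic machinery that builds iron-sulphur clusters and hands them to cytosolic and nuclear enzymes. Neither mutated gene was named by a probe set, so the genotype labels were not checked by transcript level.

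Expression is given as log2 values from robust multi-array averaging (RMA), which puts all arrays on a shared distribution. A level compares arrays for the same probe set, not different genes with each other. The word gap is used here for the replicate 1 value minus the replicate 2 value of a genotype, so a positive gap means a lower level in replicate 2. Array medians lay between 5.70 and 5.83. The 18 hybridisation control probe sets, which follow spiked RNA and not the plant, averaged 9.19 over the replicate 1 arrays and 10.65 over the replicate 2 arrays. Their part in the gaps was not tested. The actin 3′ minus 5′ difference, a measure of RNA integrity and labelling, was 2.50 to 2.89 with overlapping ranges. The label protocol gives 200 ng of input RNA for 3 samples in place of 250 ng, under codes that the labels do not tie to genotypes or replicates.

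Members were 0.29% of all probe sets. Of the 66, 31 named 1 gene and 35 named none, so that the account of functions below covers fewer than all members. Among the 13513 probe sets of the array that named 1 gene, the members made up 0.229%. None of the 66 carried the _s_at or _x_at suffix that marks probe sets shared between similar transcripts, a suffix found on 1061 of all 22746. The 31 genes were spread over the 5 chromosomes, with 12, 4, 5, 3 and 7 on chromosomes 1 to 5. The only pair within 10 protein-coding genes of each other was AT1G12010 and AT1G12080, which lay 8 genes apart. No second probe set named any of the 31 genes.

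The members ranked high among all probe sets on the replicate 1 arrays. Their median level on the 3 replicate 1 arrays was higher than 89.1% to 89.8% of all probe sets, and on the replicate 2 arrays than 58.0% to 66.6%. On every replicate 1 array 0 of the 66 lay under the array's first quartile, near 3.5, and 4 did so on at least 1 replicate 2 array. A probe set low on the replicate 1 arrays has little room to pass the cut. The high replicate 1 rank and the 0 of 66 therefore follow in part from the choice. For each of the 66 members the lowest replicate 1 array lay above the highest replicate 2 array, whatever the genotype, by 0.34 to 3.11 log2 units, with a median of 1.59. That separation was found in 22.3% of all probe sets, and for members it follows largely from the choice. The mean gap over the 3 genotypes ranged from 1.69 to 3.66, or 3.23-fold to 12.7-fold, with a median of 2.32. It was at least 3 in 7 members, between 2 and 3 in 41 and under 2 in 18. Across the 66 members the mean gap showed no linear relation to the mean level (r = -0.01 between level and signed change, a description over probe sets of the same arrays).

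**Figure D1:**
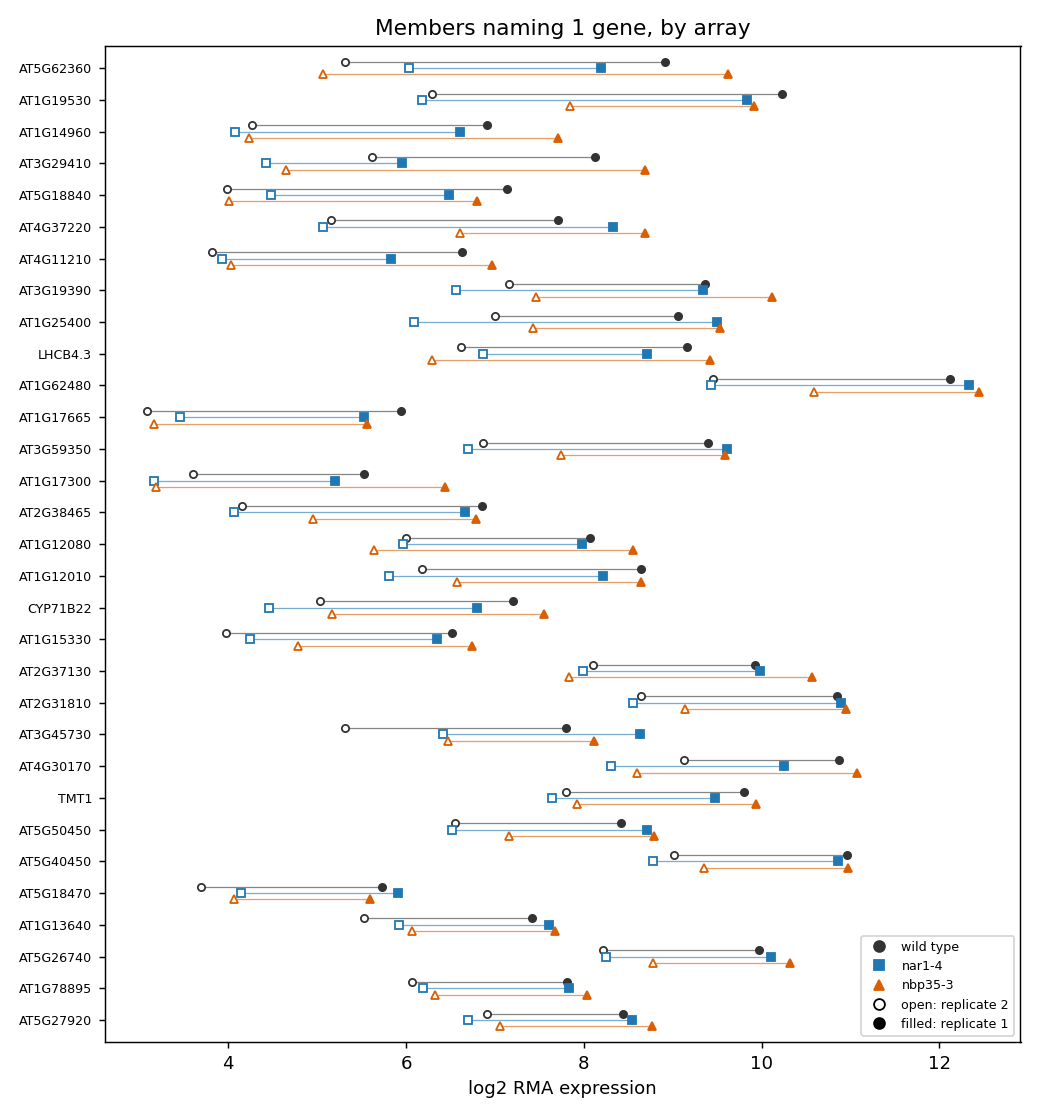
Log2 RMA expression (horizontal axis) of the 31 members that named 1 gene, ordered by mean gap. Filled symbols are replicate 1 arrays and open symbols replicate 2 arrays, joined within a genotype (circles wild type, squares nar1-4/-, triangles nbp35-3/-). In every row the filled symbols lie to the right of the open ones, and the triangles are often furthest right of their kind.

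Close to the cut the choice was narrow. Just inside lay AT5G27920 with a smallest gap of 1.53, AT5G18470 with 1.53 and AT3G29410 with 1.54. Just outside lay AT1G76590, AT3G62950 and AT2G16005, whose smallest gaps were 1.47, 1.46 and 1.45. AT1G76590 and AT2G16005 missed the cut in nbp35-3/- and nar1-4/- respectively, although their wild-type gaps were 2.49 and 2.48.

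The plant cell wall is remodelled by secreted enzymes and their inhibitors, among them pectin methylesterases, whose inhibitors slow the de-esterification of pectin, and class III peroxidases, which oxidise phenolics in the wall. AT5G62360, of the invertase and pectin methylesterase inhibitor family, had the largest mean gap of the named members. It stood at 8.91, 8.19 and 9.63 in wild type, nar1-4/- and nbp35-3/- of replicate 1 and at 5.32, 6.03 and 5.06 in replicate 2. The mean gap was 3.44 ± 1.21 (SD over 3 genotypes), a 10.8-fold difference, and nbp35-3/- held both the highest and the lowest of the 6 values.

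AT4G11210, of the dirigent family that steers the coupling of lignan and lignin precursors, was also widest in nbp35-3/-, with gaps of 2.81, 1.90 and 2.93. It stood at 6.63, 5.83 and 6.96 in replicate 1 and at 3.82, 3.93 and 4.03 in replicate 2, in the same order of genotypes. The nar1-4/- array was the lowest of replicate 1, while the replicate 2 values lay close together. The peroxidase gene AT2G37130 read 9.92, 9.99 and 10.57 in replicate 1 and 8.11, 7.99 and 7.84 in replicate 2. AT4G30170, a second peroxidase gene, read 10.87, 10.26 and 11.08 in replicate 1 and 9.12, 8.30 and 8.59 in replicate 2. Both peroxidase genes had the widest gap in nbp35-3/-, at 2.73 and 2.48. The fifth gene of this kind, AT5G18470, which encodes a lectin with a curculin-like mannose-binding domain, had gaps of 2.03, 1.77 and 1.53 in wild type, nar1-4/- and nbp35-3/- and was widest in wild type. Over these 5 genes the median gap was 2.03 in wild type, 1.95 in nar1-4/- and 2.73 in nbp35-3/-, beside 2.45, 2.17 and 1.92 over all 66 members.

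Enzymes of metabolism formed another part of the set. AT3G29410, of the terpene synthase family, had the widest range of gaps of the named members. It stood at 8.12 in wild type, 5.96 in nar1-4/- and 8.69 in nbp35-3/- of replicate 1, and at 5.62, 4.42 and 4.65 in replicate 2. The nar1-4/- array of replicate 1 was lower than those of the other genotypes and lay only 0.34 above the wild-type array of replicate 2, the smallest such margin of all members. CYP71B22, a cytochrome P450, showed the opposite kind of profile. It read 7.20, 6.80 and 7.56 in replicate 1 and 5.03, 4.46 and 5.17 in replicate 2, so that the order of the genotypes was the same in both and the gap was 2.30 ± 0.11.

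Hormone and amino acid synthesis were each represented by an enzyme. AT1G12010 encodes an oxidase of the 1-aminocyclopropane-1-carboxylate oxidase family, which makes ethylene. Its levels were 8.65, 8.21 and 8.64 in replicate 1 and 6.18, 5.81 and 6.58 in replicate 2, with gaps of 2.47, 2.40 and 2.06. AT2G31810 encodes a regulatory subunit of acetolactate synthase, the first enzyme of branched-chain amino acid synthesis, and had gaps of 2.21, 2.35 and 1.81. Both genes had their smallest gap in nbp35-3/-, where the replicate 2 array was the highest of the 3.

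Transport and membrane proteins included sugar carriers. TMT1, the tonoplast monosaccharide transporter that loads hexoses into the vacuole, stood at 9.80, 9.47 and 9.93 in replicate 1 and at 7.80, 7.64 and 7.93 in replicate 2. Its gap was 1.94 ± 0.10 (SD over 3 genotypes), a 3.85-fold difference that hardly varied with genotype. AT5G18840, of the ERD6-like sugar transporter family, read 7.14, 6.48 and 6.79 in replicate 1 and 3.99, 4.48 and 4.01 in replicate 2. Here the nar1-4/- arrays were the lowest of replicate 1 and the highest of replicate 2, which gave nar1-4/- the smallest gap, 2.00 against 3.15 and 2.79.

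AT4G37220, whose product belongs to a family of cold acclimation membrane proteins, was highest in nbp35-3/- in both replicates. It stood at 7.71, 8.33 and 8.69 in replicate 1 and at 5.16, 5.07 and 6.60 in replicate 2. AT5G26740, similar to organic solute transporters, and AT1G78895, of the reticulon family that shapes the endoplasmic reticulum, had mean gaps of 1.72 and 1.70. The gaps of AT1G78895, 1.74, 1.64 and 1.71, spanned the narrowest range of any named member.

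LHCB4.3 was the member tied to photosynthesis. It encodes a form of CP29, a minor antenna protein of photosystem II. It stood at 9.17 in wild type, 8.71 in nar1-4/- and 9.42 in nbp35-3/- of replicate 1, and at 6.61, 6.86 and 6.29 in replicate 2. The gap was thus smallest in nar1-4/- (1.85) and largest in nbp35-3/- (3.13), with the order of the genotypes in replicate 2 the reverse of that in replicate 1. LHCB4.1, which encodes another CP29 form, had gaps of 0.09, -0.26 and -0.12.

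The 5 signalling and regulatory genes had a median mean gap of 1.90, beside 2.32 over all members. The protein kinase gene AT3G59350 stood at 9.39, 9.61 and 9.58 in replicate 1 and at 6.87, 6.70 and 7.74 in replicate 2. Its replicate 1 values lay close together, and the nbp35-3/- array of replicate 2 stood above the others. AT1G15330, a CBS domain protein, had gaps of 2.54, 2.1 and 1.95. The MYND zinc finger gene AT5G50450 had gaps of 1.87, 2.19 and 1.63, the phosphatidylinositol kinase family gene AT1G13640 1.89, 1.69 and 1.62, and the F-box gene AT5G27920 1.53, 1.84 and 1.71. In 0 of these 5 genes was the gap widest in nbp35-3/-, beside 16 of the 66 members, 11 of the 31 named members and 7792 of all 22746 probe sets. With 5 genes grouped once the members were known, the count is no trait of signalling genes.

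Among the other annotated members, AT1G14960, of the major latex protein family, stood at 6.91, 6.60 and 7.71 in replicate 1 and at 4.27, 4.08 and 4.24 in replicate 2. The granulin-type cysteine protease gene AT3G19390 read 9.36, 9.34 and 10.12 in replicate 1 and 7.15, 6.56 and 7.47 in replicate 2. In both genes the nbp35-3/- array of replicate 1 lay above the other replicate 1 arrays. A pair of genes annotated as related to vacuolar calcium-binding proteins differed from each other by genotype. AT1G62480 stood at 12.12, 12.33 and 12.44 in replicate 1 and at 9.45, 9.43 and 10.59 in replicate 2, and AT1G12080 at 8.07, 7.98 and 8.55 and at 6.00, 5.97 and 5.64. The nbp35-3/- gap was the smallest for AT1G62480 (1.85) and the largest for AT1G12080 (2.91).

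For 7 named members no role is given here. AT1G19530 had the second largest mean gap of the named members, at 3.22 ± 1.0, a 9.31-fold difference. It read 10.23, 9.84 and 9.91 in replicate 1 and 6.30, 6.18 and 7.84 in replicate 2, with the nbp35-3/- array of replicate 2 well above the others. AT1G25400 had its widest gap in nar1-4/-, 3.41 against 2.06 in wild type and 2.1 in nbp35-3/-. Its nar1-4/- array of replicate 2 stood at 6.09 and the others at 7.0 and 7.43. AT1G17300 had its widest gap in nbp35-3/-, 3.25 against 1.92 and 2.03. AT1G17665, AT2G38465, AT3G45730 and AT5G40450 had mean gaps of 2.44, 2.38, 2.12 and 1.88.

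The 35 members without a gene name covered the same range. Probe set 249850_at had the largest mean gap of all 66, 3.66 ± 0.28, with 7.86, 7.30 and 7.59 in replicate 1 and 3.90, 3.66 and 4.19 in replicate 2. Probe set 264524_at had the widest spread between genotypes, with gaps of 4.13, 5.04 and 1.61. Its nbp35-3/- array of replicate 2 stood at 9.78, against 6.92 and 6.55 for wild type and nar1-4/-. The median gap of the unnamed members was 2.46, 2.34 and 1.85 in wild type, nar1-4/- and nbp35-3/-, and that of the named members 2.21, 2.08 and 2.07.

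The size of the gap was then compared between genotypes. With 1 array for each genotype and replicate number, a difference between gaps leaves no residual degree of freedom and cannot be tested, so the values are descriptive. The median gap over members was 2.45 in wild type (quartiles 2.04 and 2.69), 2.17 in nar1-4/- (1.91 and 2.65) and 1.92 in nbp35-3/- (1.69 and 2.47). Member by member, the nar1-4/- gap was smaller than the wild-type gap in 37 and larger in 29, with a median difference of 0.06. It was smaller in 47.1% of all probe sets. This share and those below compare signed gaps, so a more negative gap counts as smaller. They are no background for the size of a fall. The difference was under 0.5 in 50 of 66, and 24.2% of members differed by at least 0.5, beside 11.3% of all probe sets. The nbp35-3/- gap was smaller than the wild-type gap in 44 and larger in 22, with a median difference of 0.39. It was smaller in 50.2% of all probe sets. The difference was under 0.5 in only 27, and 59.1% of members differed by at least 0.5, beside 17.2% of all probe sets. Between the mutants the nbp35-3/- gap was smaller in 44 (beside 53.2% of all probe sets) and larger in 22, with a median difference of 0.23. Over all 22746 probe sets the corresponding median differences were -0.02, 0.00 and 0.03. The size of the nbp35-3/- difference from wild type depended on the members taken, and its median was 0.16 for the 20 probe sets past a cut of 2 log2 units and 0.21 for the 31 members naming 1 gene. At that cut the median of replicate 2 minus replicate 1 was -2.54 in wild type, -2.54 in nar1-4/- and -2.55 in nbp35-3/-, so the order of the genotype medians was lost.

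Wild type and nar1-4/- differed by under 0.5 for most members, while nbp35-3/- differed from both in either direction. Across the 66 members, which share arrays and were cut at the same value in each genotype, the wild-type and nar1-4/- gaps correlated at 0.71 (Spearman 0.65). The wild-type and nbp35-3/- gaps correlated at 0.11 (0.14), and the nar1-4/- and nbp35-3/- gaps at -0.02 (0.15). Over all probe sets the same correlations were 0.81, 0.69 and 0.67, so the low values belong to the members as cut. The gaps of a member spanned at least 1 log2 unit over the genotypes in 21 of 66 members (31.8%), beside 6.08% of all probe sets. They spanned under 0.5 in 17 (25.8%, beside 70.4% of all probe sets). The comparison with all probe sets is limited because a wide difference between replicates leaves more room for it to vary. Among the 175 probe sets that were at least 1.5 log2 units higher in replicate 2 in every genotype, chosen by the mirror image of the same cut, the gaps spanned at least 1 unit in 22.3%. In that mirror set the difference between replicates was also smallest in nbp35-3/-, with medians of 2.40, 2.25 and 2.13 in wild type, nar1-4/- and nbp35-3/-. It was smaller in nbp35-3/- than in wild type for 118 of the 175 and larger for 57. The wild-type gaps there correlated at 0.72 with those of nar1-4/- and at 0.49 with those of nbp35-3/-, and the gaps of the mutants at 0.49.

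**Figure D2:**
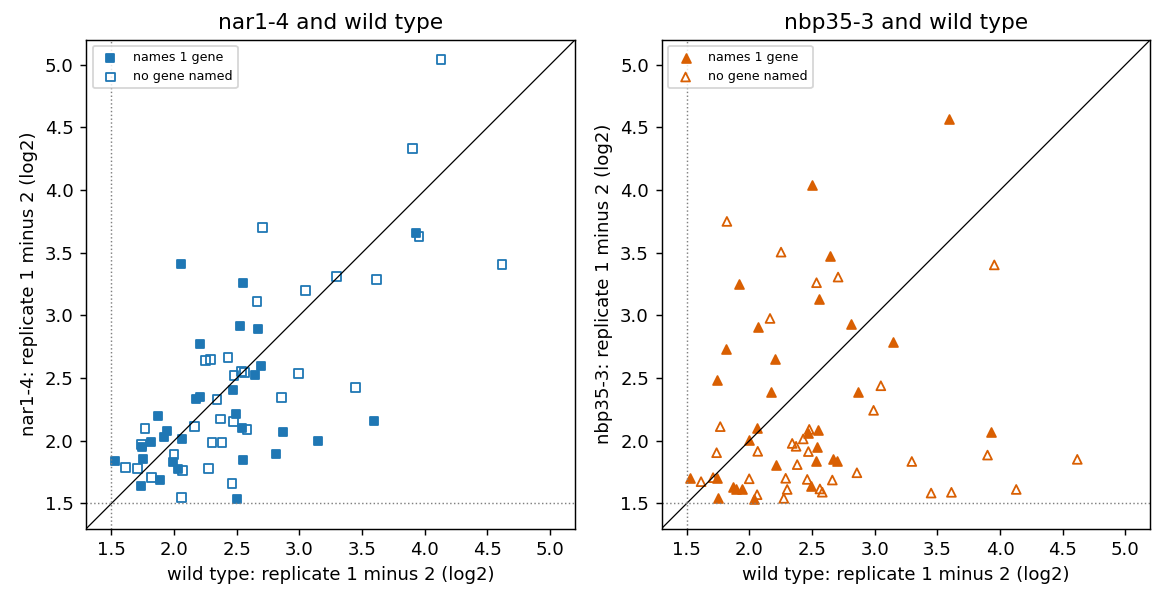
Gap (replicate 1 minus replicate 2, log2) of the 66 members in nar1-4/- (left) and nbp35-3/- (right) against the wild-type gap. Filled symbols named 1 gene, open symbols named none, the solid line marks equal gaps and dotted lines the cut of 1.5. Points follow the line on the left (r = 0.71) and scatter on the right (r = 0.11). Over all probe sets, not drawn, the values were 0.81 and 0.69.

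Set against the mean of wild type and nar1-4/-, the nbp35-3/- gap was smaller by at least 0.5 in 22 members (6.55% of all probe sets met this criterion). It was larger by at least 0.5 in 13 (8.33%) and within 0.5 in 31 (85.1%). This sorting reads the replicate 2 level difference of nbp35-3/- minus its replicate 1 level difference. It therefore partly fixes which array stands apart, and what follows is a description. In all 22 with a smaller gap the nbp35-3/- array of replicate 2 lay above both other replicate 2 arrays, by a median of 1.09 over their mean, and in replicate 1 the median difference was 0.05. In all 13 with a larger gap the nbp35-3/- array of replicate 1 lay above both other replicate 1 arrays, by a median of 0.94, and in replicate 2 the median difference was -0.21. The nbp35-3/- array was likewise the highest in 88.9% and 75.5% of all probe sets meeting the same criteria. In those with a smaller gap the median difference was -0.205 in replicate 1 and 0.502 in replicate 2. In those with a larger gap it was 0.273 in replicate 1 and -0.476 in replicate 2, so there replicate 2 stood further apart, unlike in the members.

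Named members with a larger nbp35-3/- gap were AT5G62360, AT4G11210, AT2G37130, AT4G30170, AT3G29410, LHCB4.3, AT1G14960, AT1G12080 and AT1G17300. Among them were 4 of the 5 genes for wall and secreted proteins. The criterion was met by 9 of the 31 named members, 13 of the 66 members and 8.33% of all probe sets. Named members with a smaller nbp35-3/- gap were AT1G19530, AT4G37220, AT1G25400, AT1G62480, AT3G59350, AT2G38465 and AT3G45730. Of the 5 wall and secreted genes 0 were among these, beside 7 of the 31 named members, 22 of the 66 members and 6.55% of all probe sets. The sorting uses the mean of wild type and nar1-4/-, so a place in it can come from nar1-4/-. The wall gene AT4G11210 had gaps of 2.93 in nbp35-3/- and 2.81 in wild type, and its nar1-4/- gap was the smallest. AT1G25400 had gaps of 2.1 in nbp35-3/- and 2.06 in wild type, against 3.41 in nar1-4/-. For AT4G37220 the nbp35-3/- gap was only 0.47 smaller than the wild-type gap. The role groups were formed once the members were known and were not tested, so the counts of wall genes are no trait of that group. Some organ markers also stood apart in nbp35-3/-. EXPA7 and EXPA18, expansins of root hair cells, stood at 6.05 and 6.44 on the nbp35-3/- array of replicate 1, above the 5.2 to 5.74 of the wild-type and nar1-4/- arrays, and had nbp35-3/- gaps of 1.3 and 1.07. Their wild-type gaps were 0.12 and 0.13 and their nar1-4/- gaps 0.16 and -0.02. PYK10, a glucosidase of roots and the third measured root marker, had gaps of -0.13, -0.47 and -0.21. The seed gene M17 stood at 3.99 on the nbp35-3/- array of replicate 2 and at 2.18 to 2.71 on the others. M10, the other seed gene measured, read 2.45 to 3.00 over all arrays. The part of organ shares in the unequal gaps was not tested, and with whole seedlings fewer cells of a type and less RNA per cell cannot be told apart.

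**Figure D3:**
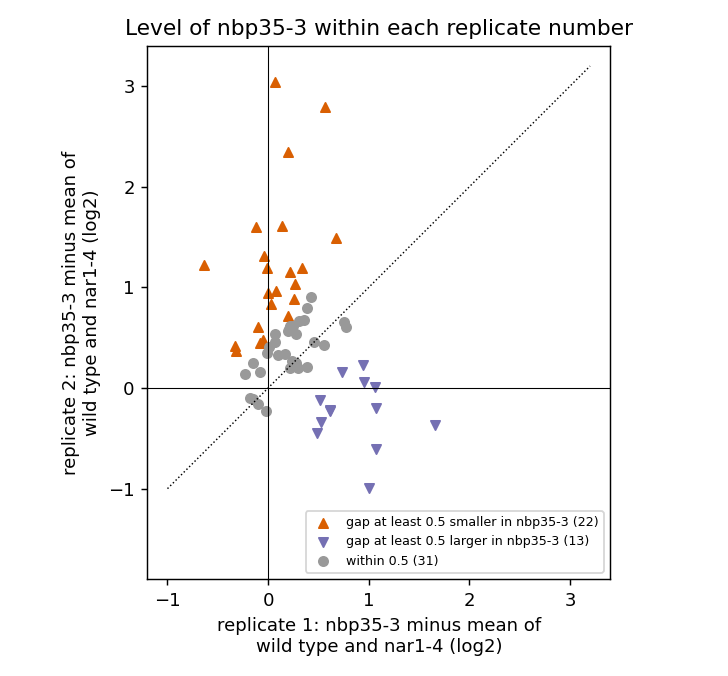
Difference in log2 expression between nbp35-3/- and the mean of wild type and nar1-4/- in replicate 1 (horizontal) and replicate 2 (vertical) for the 66 members. Upward triangles mark the 22 members whose gap was at least 0.5 smaller in nbp35-3/-, downward triangles the 13 with a gap at least 0.5 larger and circles the other 31, and the dotted line marks equal differences in both. The upward triangles lie high on the vertical axis (median 1.09) and the downward ones to the right (median 0.94). The groups were cut on the vertical minus the horizontal value, which partly fixes these places.

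Levels were then compared between genotypes within each replicate number. The choice did not set which genotype was higher, but it used the same 6 arrays, and the replicate 1 difference between genotypes minus the replicate 2 difference is the difference of their gaps, so these values are a description. Members were often highest in nbp35-3/-. In replicate 1 the nbp35-3/- array was the highest of the 3 for 42 of 66 members (63.6%, beside 35.6% of all probe sets), and in replicate 2 for 49 (74.2%, beside 39.0%). It was the highest in both for 31 members (47.0%, beside 13.7%). Wild type was the highest in both for 1 (1.52%, beside 10.5%) and nar1-4/- for 2 (3.03%, beside 11.0%). The median difference from wild type was 0.26 in replicate 1 and 0.46 in replicate 2, with 50 and 53 of 66 members above 0, and over all probe sets both medians were 0.01. For nar1-4/- the median differences from wild type were 0.03 and -0.01. In the mirror set of 175 probe sets nbp35-3/- was the lowest of the 3 in both numbers for 37.1%, beside 10.9% of all probe sets. The members share the same 6 arrays, so these shares are not independent observations.

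The genotype means were tested with limma on all 22746 probe sets, with 1 mean for each genotype over both replicates and Benjamini-Hochberg adjustment over all of them. In nar1-4/- with wild type 0 of 66 members had an unadjusted p under 0.05 (0.862% of all probe sets did), in nbp35-3/- with wild type 0 (0.611%), and in nbp35-3/- with nar1-4/- 0 (0.954%). For members the gap between replicates, which chose them, enters the residual spread of this fit, and the median standard error was 1.3. With the replicate number as a block the residual is made up of differences between gaps, each of which the cut held at 1.5 or more, and the median standard error was 0.21. The numbers of members with an unadjusted p under 0.05 were then 7 for nar1-4/- with wild type (3 higher, 4 lower, beside 4.44% of all probe sets), 23 for nbp35-3/- with wild type (all higher, beside 4.73%) and 20 for nbp35-3/- with nar1-4/- (all higher, beside 5.55%). After adjustment 0 members passed in any of these fits, and the smallest adjusted p of a member with the block was 0.612. All 23 were higher in nbp35-3/- in both replicates, with median differences of 0.33 in replicate 1 and 0.86 in replicate 2. A small p in the block fit needs similar differences in both replicates. The shared sign therefore follows largely from picking by that p and is no further evidence.

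The count for nbp35-3/- with wild type changed with the array used. With the block and without the nbp35-3/- array of replicate 1 it was 36 of 66 (beside 15.7% of all probe sets), of which 12 passed adjustment (1.06%), and without that of replicate 2 it was 18 (5.1%), of which 0 passed (0.0615%). Against nar1-4/- the same counts were 33 (14.1%) with 4 past adjustment (0.462%), and 20 (7.97%) with 3 (0.277%). For nar1-4/- with wild type either omission gave 18 (8.56%) and 0 (0.106%). These fits compare a single nbp35-3/- array and leave 1 residual degree of freedom, which is the difference between the wild-type and nar1-4/- gaps. The estimate for nbp35-3/- also draws on those gaps, and the choice of members used them. The fits were added after the data were seen, and with the block only nbp35-3/- arrays were left out. The counts for nbp35-3/-, also those past adjustment, therefore describe the array used and are no evidence of a genotype difference.

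Individual members with the smallest p in the block fit were named by rule, and none passed limma's adjustment. AT4G37220 was 1.22 ± 0.28 (log2, SE) higher in nbp35-3/- than in wild type, with 0.98 in replicate 1 and 1.45 in replicate 2 (adjusted p = 0.93). AT5G26740 was 0.46 ± 0.13 higher in nbp35-3/-, with 0.35 and 0.56 (adjusted p = 0.93). AT3G45730 was higher than in wild type in both mutants, by 0.97 ± 0.22 in nar1-4/- (0.83 and 1.1 within the replicates, adjusted p = 0.979) and by 0.74 ± 0.22 in nbp35-3/- (0.31 and 1.16, adjusted p = 0.93). Differences from wild type in nar1-4/- were -0.49 ± 0.12 for CYP71B22, with -0.40 and -0.57, and -0.72 ± 0.20 for the peroxidase gene AT4G30170, with -0.61 and -0.82 (adjusted p = 0.979 for each). Between the mutants CYP71B22 was 0.73 ± 0.12 (adjusted p = 0.612), AT3G19390 0.84 ± 0.17 (adjusted p = 0.685) and AT1G12010 0.60 ± 0.15 (adjusted p = 0.86) higher in nbp35-3/-. Each of these 7 genes kept its sign in both replicates for the comparison given, which their choice by the smallest p with the block largely fixed.

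Recurrence was also described on arrays of a genotype that a choice in the other genotypes did not use. Probe sets were chosen by the same cut in 2 genotypes, with the same genes set aside, and read in the third. Of 75 chosen in nar1-4/- and nbp35-3/-, 66 (88.0%) passed the cut in wild type, where 1.06% of all probe sets did, and 74 had a positive gap. Of 93 chosen in wild type and nbp35-3/-, 66 (71.0%) passed in nar1-4/-, where 1.01% of all did, and all 93 had a positive gap. Of 138 chosen in wild type and nar1-4/-, 66 (47.8%) passed in nbp35-3/-, where 1.26% of all did, and 129 had a positive gap. The median gap in the unused genotype was 2.30 for wild type, 1.99 for nar1-4/- and 1.46 for nbp35-3/-. The 66 that passed are the members each time, so the shares restate how many probe sets each choice took. The arrays read also share replicate numbers with the arrays used, and such arrays deviated together over all probe sets (correlations of 0.67 to 0.81). These values are therefore no independent check. Nearly all probe sets chosen in this way shared the direction, and the median gap in the unused genotype was smallest for nbp35-3/-.

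**Figure D4:**
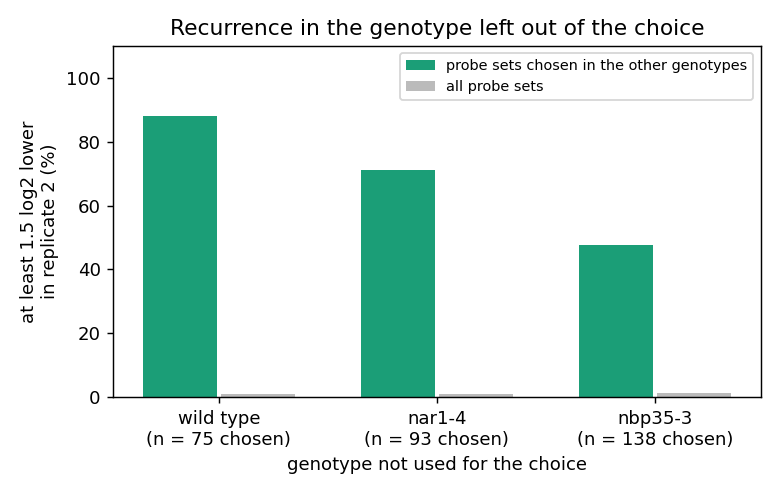
Share of probe sets at least 1.5 log2 units lower in replicate 2 (vertical axis, %) in a genotype not used for the choice, for probe sets chosen in the other genotypes (green bars, 75, 93 and 138 probe sets) and for all probe sets (grey bars). The green bars stand at 88.0%, 71.0% and 47.8% and the grey bars at 1.06%, 1.01% and 1.26%. The probe sets that passed in each green bar are the same 66 members.

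Lists of pathway genes, written with earlier results of these data known, held few measured genes. Of 292 genes in 27 lists, 289 were found in the gene table under the name written and 37 had a probe set of their own here. Only LHCB4.3, from a list for light stress, was a member, and COR27 was past the cut but set aside. Other list genes, picked after their values were seen, showed smaller gaps. The starch enzymes DPE1, a disproportionating enzyme, and PWD, a phosphoglucan water dikinase, were lower in replicate 2 in every genotype, with gaps of 0.67, 1.02 and 0.87 and of 1.05, 0.89 and 0.72. The clock gene GI had gaps of 0.16, 0.40 and -0.12, and the dehydrin gene COR47 0.77, 0.56 and 0.66. Over the 37 measured genes 7 were lower in replicate 2 in all 3 genotypes, by any amount, and 14 higher, beside 29.5% and 27.5% of all probe sets.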

How the data were processed

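Whole seedlings were profiled on 6 Affymetrix arrays, 2 for each of 3 genotypes, and samples were grouped by title. The deposited values are log2 expression from RMA, per the submitters' processing notes, and no version of RMA is named there. RMA makes arrays share a distribution, so differences in total RNA are removed. No intensities before RMA were used, so signal over background is not known, and the number of arrays limits precision. The table left 0 value columns without a sample, and 64 Affymetrix control probe sets were kept out of tests.

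Probe sets were named from the platform annotation, with symbols updated through a RefSeq gene table of TAIR10.1. All 31 members naming 1 gene matched it, and the 35 others are given by number. Roles are textbook annotation. No sequence is printed, because no sequence table was used here.

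Genotype means were tested two-sided on the whole table with limma 3.58.1 (lmFit, then eBayes) under R 4.3.3, with 3 residual degrees of freedom, or 2 with the replicate number as a block. The fit was tested on simulated data. Arrays with the same replicate number deviated together from their genotype means, with correlations of 0.814, 0.694 and 0.674. What a number stands for is not stated. Nothing in them states separate cultures beyond the word biological, so p-values measure the spread between these samples. Members, lists and role groups were chosen with earlier results of these data known. The rule for named genes took the 20 members with the largest mean gap, the 5 widest and 5 narrowest ranges, 3 per genotype with the most exceptional gap, 3 per comparison with the smallest p with the block, list members, and 3 genes on each side of the cut. AT2G31810, AT5G50450 and AT5G40450 are named to account for every named member, and markers and list genes outside it were singled out after their values were seen.

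Alternatives were a looser cut of 2.38-fold and a cut of -2 on the signed change, median centring, quantile normalization, a mean level of at least 6, probe sets naming 1 gene, choice in 2 genotypes, a trended prior, fits of 2 genotypes, the block, and leaving out each array. A cut on the mean change and the block with an nbp35-3/- array left out were added after the data were seen.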

Additional observations from a re-analysis of the deposited data

How the results depend on the processing

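Here changes are replicate 2 minus replicate 1, so the gaps of the text have the opposite sign. The set's size followed the cut. It was 118 probe sets at a looser cut of 2.38-fold, 20 at -2, 165 with the cut on the mean of the 3 changes, 138 when chosen in wild type and nar1-4/- alone, and 31 with probe sets naming 1 gene. Some median changes moved with it by more than the spread between the 3 genotypes' medians (0.27), and others by less. With probe sets naming 1 gene all 3 moved by less. In wild type they were -2.18 at the looser cut, -2.07 with the cut on the mean and -2.18 when chosen without nbp35-3/-. At the cut of -2 the medians were -2.54 in wild type, -2.54 in nar1-4/- and -2.55 in nbp35-3/-, so that the smaller median in nbp35-3/- was lost. There the wild-type median moved by less than 0.27 and those of the mutants by more. In nbp35-3/- the median was -1.46 when chosen without it. The median difference between nbp35-3/- and wild type, 0.39 over the members, was 0.16 at the cut of -2 and 0.21 with probe sets naming 1 gene, and that between the mutants, 0.23, was 0.17 and 0.12. The set held 79 probe sets with median centring, 68 with quantile normalization and 49 with the filter on the mean level, and under these 3 the median changes and their differences moved by less than 0.27. For genotype means 0 members had an unadjusted p under 0.05 without the block, also with the trended prior, either scaling or fits of 2 genotypes. The choice nearly fixed this result, because the gap that chose the members enters the residual spread of these fits. The zeros are therefore no sign of equal genotype means. Without the block, leaving out an array leaves 1 array in a genotype, and those counts are not given. With the replicate block there were 7 between nar1-4/- and wild type, 23 between nbp35-3/- and wild type, and 20 between the mutants. With the block and without nbp35-3/- replicate 1 they were, in the same order, 18, 36 and 33, and without nbp35-3/- replicate 2 they were 18, 18 and 20. The block fits without an nbp35-3/- array rest on a single array of that genotype and on gaps that chose the members. Their counts for nbp35-3/- are therefore no evidence of a genotype difference. A gap that differs by genotype could not be tested with 1 array in each cell.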

Other observations

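Some probe sets met the cut in wild type and nar1-4/- but were not lower in replicate 2 in nbp35-3/-. Of the 138 chosen in the first 2 genotypes, 72 missed the cut in nbp35-3/-, and in 9 the difference there ran the other way. The nbp35-3/- gap was at least 1 log2 unit in 104 of the 138, and 1.26% of all probe sets passed the cut there. Probe sets were also lost in the other genotypes. Of 75 chosen without wild type 66 passed in it, with 74 in the same direction, and of 93 chosen without nar1-4/- 66 passed, with 93 in the same direction. Of these 9, 5 named 1 gene, and they were singled out after their values were seen. AT5G39520 stood at 8.38 and 6.62 in wild type and nar1-4/- of replicate 1 and at 4.02 and 4.00 in replicate 2, against 4.26 and 4.80 in nbp35-3/- of replicates 1 and 2. CML41, a calmodulin-like protein gene, stood at 5.58 and 5.97 in replicate 1 and at 3.75 and 4.04 in replicate 2, against 4.22 and 4.53 in nbp35-3/-. For both genes it was the nbp35-3/- array of replicate 1 that lay below the other replicate 1 arrays.

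The other 3 had an nbp35-3/- array of replicate 2 near the replicate 1 level. AT4G33150, which encodes the bifunctional enzyme that starts lysine breakdown, read 8.84 and 9.12 in wild type and nar1-4/- of replicate 1, 7.11 and 7.18 in replicate 2, and 8.41 and 8.69 in nbp35-3/-. AT1G19380 read 8.51 and 9.49, then 6.67 and 7.76, and 8.64 and 8.78 in nbp35-3/-. AT3G23550, of the MATE efflux family, read 7.77 and 8.26, then 5.92 and 5.65, and 7.72 and 7.75 in nbp35-3/-. Probe set 247718_at, which named no gene, had the widest contrast, with gaps of 6.32 in wild type, 2.58 in nar1-4/- and -3.40 in nbp35-3/-. Each of these values rests on a single array, and none of the differences between gaps was tested.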
